A study of Mus musculus with 18 samples.

Results

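The elements described are the IAPEz group of intracisternal A particles (IAPs), taken as the table rows whose repeat name begins with IAPEz, IAPLTR1 or IAPLTR2. These are 7 of 1365 repeat subfamilies: the internal part IAPEz-int, the long terminal repeats (LTRs) IAPLTR1_Mm and IAPLTR1a_Mm, and the LTRs IAPLTR2_Mm, IAPLTR2a, IAPLTR2a2_Mm and IAPLTR2b. All 7 are classed as ERVK elements, and all 7 carried an adjusted p in each of the 3 tables, so none was lost to a filter on low values. The study made 18 mouse poly(A) RNA libraries, 3 for each of 6 groups. Embryonic stem cells (ESCs, 129S1/CASTEiJ background, kept in 2i medium) were given NVP-AUY922, which inhibits the protein-folding chaperone HSP90, at 100 nM for 24 h or were left untreated. Bone-marrow-derived macrophages (BALBC/C57BL6 background, derived with M-CSF) were given 500 nM for 24 h or were left untreated. Neuronal progenitor cells (NPCs, 129S1/CASTEiJ background, grown with EGF and FGF) were given 50 nM for 24 h or were left untreated. Dose and cell type change together, and macrophages differ from the other cells in strain as well, so these cannot be told apart.

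IAPs are endogenous retroviruses that still move in the mouse germ line. An intact copy has an internal part, which encodes the Gag particle protein, the protease and the polymerase, between a pair of LTRs; the LTR holds the promoter and the signal for the end of the transcript. IAPLTR1 and IAPLTR2 LTRs flank IAPEz internal parts, and many LTRs stand alone in the genome after the internal part was lost by recombination. In most cells these copies are held silent by DNA methylation and by histone H3 lysine 9 methylation, which KRAB zinc finger proteins bring in through TRIM28 and SETDB1, and the sites of IAP copies differ between inbred mouse strains. The title of the study places endogenous retroviruses under a buffering effect of HSP90, and the comparison of treated with untreated cells bears on how much RNA came from them.

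Each of the authors' deposited tables gives, for a subfamily summed over its genomic copies, 1 base mean over the 6 libraries and 1 log2 fold change between treated and untreated cells, with its standard error (SE, after ±). The tables hold no value per library, so neither the spread of single libraries nor overlap of the groups can be shown. They do not name the numerator of the fold change either. A value is therefore said to lie on the positive or the negative side, with no claim as to which side is that of the treated cells. The labels do not say whether the replicates came from different cultures or animals; the spread behind the p-values may thus be technical. The labelled cell types could not be checked, since the tables hold repeats and no marker genes. Rows of one family may share reads, which cannot be checked because the treatment of reads that match several copies is not stated. A row can also take in reads of genes that contain a copy.

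In ESCs the whole group lay on the positive side, IAPLTR2b only just, at 0.020. Of its 7 rows 6 passed an adjusted p of 0.05 there, against 10.2% of the 1132 rows tested, and IAPLTR2b alone did not. None passed on the negative side, where 12.0% of tested rows did, and none had an unadjusted p under 0.05 on that side. In macrophages 4 rows passed on the positive side, 1 on the negative side and 2 on neither, against 13.3% and 12.5% of the 1255 rows tested. In NPCs 2 rows passed on the positive side, against 4.96% of the 1249 rows tested, 5 passed on neither, and 0 passed on the negative side, against 6.81%, or at an unadjusted p under 0.05. On either side together, 22.2% of tested rows passed in ESCs, 25.8% in macrophages and 11.8% in NPCs. The 7 rows had a median log2 fold change of 0.58 in ESCs, of 0.19 in macrophages and of 0.22 in NPCs, against 0.0019, -0.0129 and 0.00089 over all tested rows of the same tables. The group was proposed with earlier results of these data known, so these counts describe it and are no independent evidence of its direction.

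**Figure D1:**
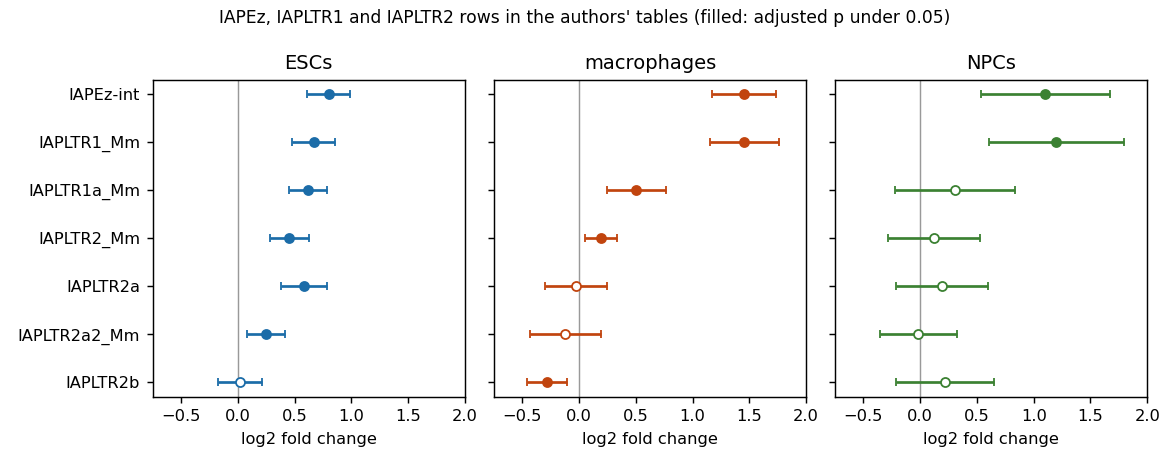
Log2 fold change of each of the 7 rows (points; bars are 95% intervals) in the authors' deposited tables for ESCs, macrophages and NPCs; filled points have an adjusted p under 0.05. IAPEz-int and IAPLTR1_Mm are filled on the positive side in all 3 panels, while the IAPLTR2 rows lie near 0 in macrophages and NPCs and IAPLTR2b is filled on the negative side in macrophages.

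IAPEz-int, the internal part, had by far the most reads of the group and lay on the positive side in every cell type. In the authors' deposited table for ESCs it lay at 0.80 ± 0.10 (1.74-fold, base mean 188716 normalised reads, adjusted p 2.43e-15). For macrophages the authors' deposited table gave 1.45 ± 0.14 (2.74-fold, base mean 55687, adjusted p 6.79e-22). In the authors' deposited table for NPCs its value was 1.10 ± 0.29 (2.15-fold, base mean 77374, adjusted p 0.0026). Ordered by log2 fold change from the positive end, IAPEz-int was row 33 of 1132 in ESCs, row 11 of 1255 in macrophages and row 25 of 1249 in NPCs. It took 4.91%, 2.80% and 3.71% of the summed base mean of all repeat rows in ESCs, macrophages and NPCs, and only 1, 4 and 2 rows had a higher base mean. These are shares of reads, not levels per length. Of the 5, 13 and 11 other tested rows within a factor of 2 of its base mean, in the same order, none had a higher value; their highest log2 fold changes were -0.096, 0.12 and 0.053, those of the SINE rows B3, B4 and B3A in the authors' deposited tables.

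The SE of IAPEz-int was largest in NPCs. Of the 247 NPC rows whose base mean reached 1000 in the authors' deposited table, its SE was number 32 from the largest, at 0.29 against a median of 0.17. Among rows of that base mean, the SE of IAPEz-int was number 16 of 237 in macrophages, at 0.14 against a median of 0.070. In ESCs it was number 34 of 319, at 0.096 against a median of 0.077. With its SE in each table, an absolute log2 fold change of about 0.24 was enough to pass in ESCs, 0.36 in macrophages and 0.80 in NPCs. Its NPC call and that of IAPLTR1_Mm were lost with Holm adjustment over all tested rows, at adjusted p of 0.17 and 0.098, while the other alternatives gave 0.0012 to 0.0027 over both rows.

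Of the IAPLTR1 LTRs, IAPLTR1_Mm stayed close to the internal part in every cell type. In the authors' deposited tables it lay at 0.67 ± 0.10 in ESCs (adjusted p 1.44e-10), at 1.45 ± 0.15 in macrophages (adjusted p 2.18e-19) and at 1.20 ± 0.30 in NPCs (adjusted p 0.0017). The gap of IAPLTR1_Mm minus IAPEz-int came to -0.13 (ESCs), 0.0013 (macrophages) and 0.096 (NPCs), each smaller than the width of either row's 95% interval. IAPLTR1a_Mm, the second LTR of this name, kept with them in ESCs, at 0.62 ± 0.09 (adjusted p 2.12e-11), but not in macrophages, at 0.50 ± 0.13 (adjusted p 0.0011), both in the authors' deposited tables. Its macrophage interval of 0.24 to 0.76 did not overlap that of IAPLTR1_Mm, 1.15 to 1.76. The NPC value of IAPLTR1a_Mm in the authors' deposited table, 0.30 ± 0.27, did not pass (adjusted p 0.61), with an interval of -0.22 to 0.83 that overlapped that of IAPLTR1_Mm. No test was run between rows of a table, since they come from the same libraries and may share reads.

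The IAPLTR2 LTRs lay nearer 0 than IAPEz-int in each cell type, and their order changed from table to table. In ESCs 3 of the 4 passed on the positive side: in the authors' deposited table IAPLTR2a lay at 0.58 ± 0.10 (adjusted p 4.12e-07), IAPLTR2_Mm at 0.45 ± 0.09 (adjusted p 4.04e-06) and IAPLTR2a2_Mm at 0.25 ± 0.08 (adjusted p 0.017). IAPLTR2b did not pass there, at 0.020 ± 0.099 in the authors' deposited table (adjusted p 0.93), and its interval of -0.17 to 0.21 lay apart from that of IAPLTR2a, 0.38 to 0.79. In macrophages the 4 rows lay on both sides of 0. The authors' deposited table for macrophages gave IAPLTR2_Mm 0.19 ± 0.07 (adjusted p 0.033) and IAPLTR2b -0.28 ± 0.09 (adjusted p 0.0096), each past the threshold and each a difference of 1.22-fold or less. Both calls were lost with Holm adjustment, as were those of IAPLTR1a_Mm in macrophages and IAPLTR2a2_Mm in ESCs, and at a threshold of 0.01 those of IAPLTR2_Mm in macrophages and IAPLTR2a2_Mm in ESCs were lost. IAPLTR2a at -0.03 ± 0.14 and IAPLTR2a2_Mm at -0.12 ± 0.16 in the authors' deposited table did not pass (adjusted p 0.92 and 0.66). IAPEz-int and IAPLTR2b thus lay on opposite sides of the same macrophage contrast, 1.74 apart on the log2 scale, which holds whichever group is the numerator. None of the 4 passed in NPCs, for which the authors' deposited table gave 0.12 ± 0.21 for IAPLTR2_Mm, 0.19 ± 0.21 for IAPLTR2a, -0.02 ± 0.17 for IAPLTR2a2_Mm and 0.22 ± 0.22 for IAPLTR2b (adjusted p between 0.67 and 0.98).

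The rows of IAPEz-int and IAPLTR1_Mm passed on the positive side in all 3 tables, if the tables run the same way. Of 1121 rows tested in all of them, 7 did so, or 0.624%. Besides these 2, they were IAP1-MM_I-int and IAP1-MM_LTR, which belong to another IAP group, the ERVK LTR RLTR44E, the DNA transposon Tigger16a and X7C_LINE, a CR1 element. Another 15 rows, or 1.34%, passed on the negative side in all 3, with 0 rows of the group among them. Whatever the side, 33 rows, or 2.94%, passed in all 3, a count that does not depend on how the tables run. No library is in 2 tables.

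**Figure D2:**
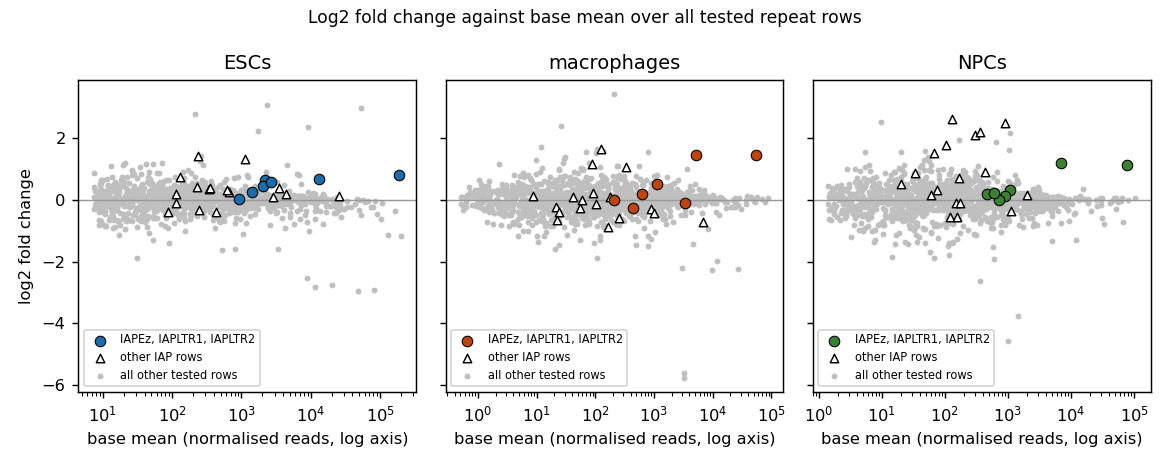
Log2 fold change against base mean (log axis) for every tested row of each of the authors' deposited tables: the 7 IAPEz, IAPLTR1 and IAPLTR2 rows (large filled points), the 18 other IAP rows (open triangles) and all others (grey). IAPEz-int is the rightmost filled point in each panel, and with IAPLTR1_Mm it lies above the grey rows of like base mean in macrophages and NPCs, while the other filled points lie within the grey band in those panels.

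Between cell types the difference was tested per row, by dividing the gap between both log2 fold changes by its joint SE, with adjustment over all rows tested in both tables. ESCs and macrophages differed for 3 of the 7 rows, against 23.7% of the 1124 rows tested. IAPEz-int lay lower in ESCs than in macrophages, 0.80 against 1.45, a difference of -0.65 ± 0.17 (95% interval -0.99 to -0.31, adjusted p 0.0014). For IAPLTR1_Mm the ESC value of 0.67 stood against 1.45 in macrophages, a difference of -0.79 ± 0.18 (-1.14 to -0.43, adjusted p 2.11e-04). IAPLTR2a differed the other way, at 0.58 in ESCs against -0.03 in macrophages, by 0.61 ± 0.17 (0.27 to 0.95, adjusted p 0.0037). The remaining rows did not pass, with differences of 0.11 for IAPLTR1a_Mm (-0.20 to 0.42), 0.26 for IAPLTR2_Mm (0.04 to 0.49), 0.37 for IAPLTR2a2_Mm (0.02 to 0.73) and 0.30 for IAPLTR2b (0.04 to 0.56) and adjusted p between 0.080 and 0.68. So the internal part and IAPLTR1_Mm had the larger value in macrophages, while all 4 IAPLTR2 rows had the larger value in ESCs, IAPLTR2a alone past the test. With SEs multiplied by 1.5 none of the 3 passed, at adjusted p of 0.10 for IAPEz-int, 0.052 for IAPLTR1_Mm and 0.15 for IAPLTR2a, and with Holm adjustment only IAPLTR1_Mm did, at 0.017. Under a base mean minimum of 50, centring or a threshold of 0.01 all 3 passed.

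No row of the group passed the same test against NPCs, where 12.6% of the 1126 rows tested did for ESCs minus NPCs and 12.4% of 1222 for macrophages minus NPCs. At an unadjusted p under 0.05 there were 0 rows for ESCs minus NPCs and 1, IAPLTR2b, for macrophages minus NPCs, with a difference of -0.50 ± 0.24 (adjusted p 0.19). The intervals were wide: for IAPEz-int the difference was -0.30 (-0.90 to 0.29) for ESCs minus NPCs and 0.35 (-0.29 to 0.99) for macrophages minus NPCs. For IAPLTR1_Mm they were -0.53 (-1.16 to 0.097) and 0.26 (-0.41 to 0.93). The NPC values of both rows lay between those of the other cell types, and the test passed against neither.

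The test takes the tables as running the same way, which is not stated in them. With the second table of a pair turned round, the group would differ in 5 rows between ESCs and macrophages, 4 between ESCs and NPCs and 3 between macrophages and NPCs. Over all tested rows, 314 of 1124, 182 of 1126 and 243 of 1222 would then differ, in the same order. For ESCs minus macrophages all 5 rows would lie above 0, with IAPEz-int at 2.25, IAPLTR1_Mm at 2.12 and IAPLTR2a at 0.55. IAPLTR2b would lie at -0.26 and not pass. The opposite signs of the differences of IAPEz-int and IAPLTR2a thus rest on the tables running the same way. The size of the log2 fold change of IAPEz-int and IAPLTR1_Mm, sign aside, differed between ESCs and macrophages by the same -0.65 and -0.79 in either case, since both rows were positive in both tables.

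**Figure D3:**
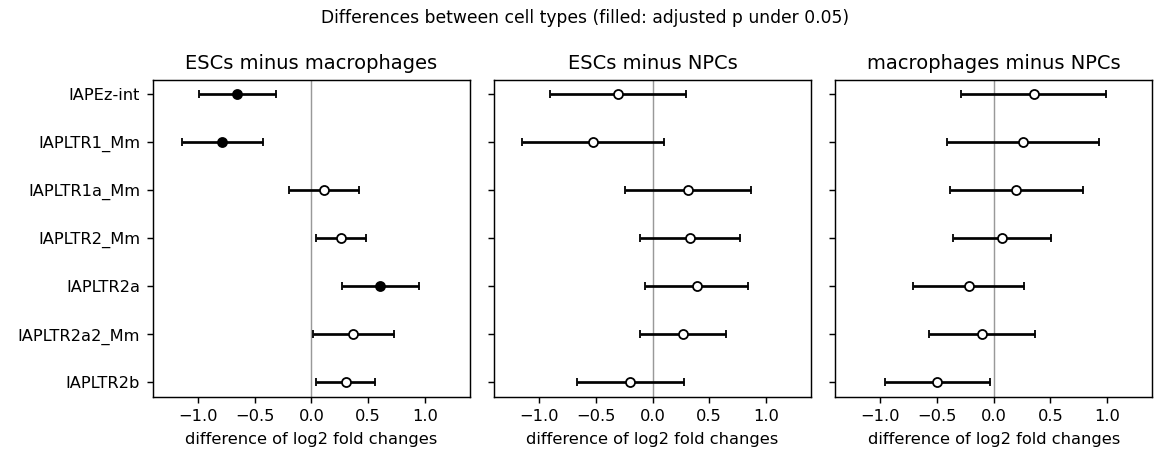
Difference between cell types in the log2 fold change of each row (points; bars are 95% intervals), for ESCs minus macrophages, ESCs minus NPCs and macrophages minus NPCs; filled points have an adjusted p under 0.05. In the left panel IAPEz-int and IAPLTR1_Mm lie at -0.65 and -0.79 and IAPLTR2a at 0.61; no point is filled in the other panels.

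The LTR rows also differed between cell types in how many reads they had beside the internal part. This ratio is taken within a table, over treated and untreated libraries together, so the scale of each table and the lengths of the elements cancel when one LTR is compared across cell types. The deposited tables give no error for a base mean, so no test was made. IAPEz-int itself differed 1.74-, 2.74- and 2.15-fold between the treated and untreated cells of ESCs, macrophages and NPCs. Each ratio mixes in that difference, so it is not the ratio of treated or untreated cells alone. The 6 LTR rows together had 11.8 reads per 100 of IAPEz-int in ESCs, 19.5 in macrophages and 13.7 in NPCs. IAPLTR2_Mm was nearly level in this pooled ratio, at 1.08, 1.11 and 1.14 per 100 in that order. IAPLTR1_Mm had 6.91 in ESCs, 9.17 in macrophages and 8.92 in NPCs. IAPLTR2a2_Mm had 0.75 per 100 in ESCs, 6.03 in macrophages and 0.93 in NPCs, so that its macrophage ratio was 8.03 times that in ESCs and 6.46 times that in NPCs. It supplied 30.9% of the LTR reads of the group in macrophages, against 6.35% in ESCs and 6.79% in NPCs. Its own log2 fold change in macrophages did not pass the test. Its SE there was number 11 from the largest of 237 rows whose base mean reached 1000, at 0.16 against a median of 0.070. An absolute log2 fold change of about 0.40 was needed to pass. In the ratio of reads IAPLTR2a went the other way, with 1.44 per 100 in ESCs, 0.38 in macrophages and 0.60 in NPCs, a ratio 3.81 times as high in ESCs as in macrophages. The macrophages come from another strain background than the other cells, and the part of strain in these ratios cannot be told apart from that of cell type.

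**Figure D4:**
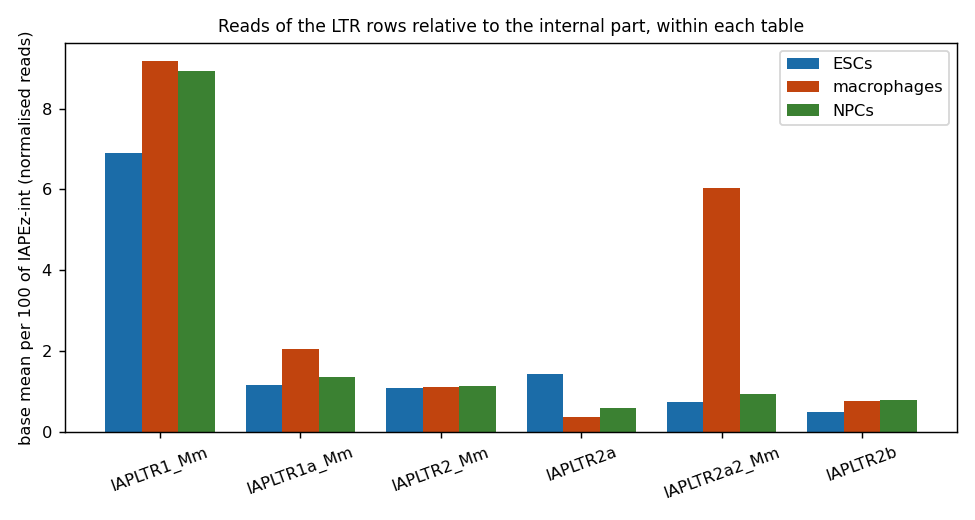
Base mean of each LTR row per 100 of IAPEz-int (bars start at 0) within the authors' deposited table of each cell type; the bars have no error, since none is given for a base mean. IAPLTR2a2_Mm stands at 6.03 in macrophages, against 0.75 in ESCs and 0.93 in NPCs, and IAPLTR2a is highest in ESCs at 1.44.

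The other 18 IAP rows, which comprise the IAPEY, IAP1, IAPA, IAPLTR3, IAPLTR4 and IAP-d names, had another order of medians over the cell types when pooled. In ESCs 9 of them passed on the positive side, 1 on the negative side and 8 on neither, with a median of 0.28, against 0.58 for the IAPEz group. In macrophages 3 were positive, 5 negative and 10 neither, with a median of -0.19, against 0.19. In NPCs 8 were positive, 1 negative and 9 neither, with a median of 0.61, against 0.22. The 10 IAPEY rows alone had medians of 0.30, -0.19 and 0.16 in ESCs, macrophages and NPCs, the same order as the IAPEz group. The 7 IAP1, IAPA, IAPLTR3 and IAPLTR4 rows had medians of 0.31, 0.13 and 2.08. The other 258 ERVK rows had medians of -0.03, -0.03 and 0.07 in ESCs, macrophages and NPCs. By smallest adjusted p among the other IAP rows, the authors' deposited table for ESCs had IAP1-MM_I-int at 1.32 ± 0.09, IAP1-MM_LTR at 1.41 ± 0.14 and IAPEY4_I-int at 0.56 ± 0.09. For macrophages the authors' deposited table had IAPA_MM-int at 1.64 ± 0.20, IAPEY4_I-int at -0.71 ± 0.09 and IAP1-MM_I-int at 1.05 ± 0.15. In NPCs they were IAP1-MM_I-int at 2.46 ± 0.19, IAPLTR3-int at 2.17 ± 0.20 and IAP1-MM_LTR at 2.08 ± 0.21 in the authors' deposited table, all beyond the 1.10 of IAPEz-int. The base means of these rows in NPCs were 913, 365 and 298, against 77374 for IAPEz-int.

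Of 715 other rows that reached a base mean of 50 in every table, the one whose 3 log2 fold changes lay nearest to those of IAPEz-int was its LTR IAPLTR1_Mm, at a Euclidean distance of 0.16. The nearest rows outside the group were much farther off: Tigger16a at 0.84, then the ERVK rows MMERVK10D3_I-int at 0.93, RLTR13D6 at 1.18, IAP1-MM_LTR at 1.19 and MLTR18A_MM at 1.21. IAPLTR1a_Mm was the 8th nearest, and IAPLTR2_Mm, IAPLTR2a, IAPLTR2a2_Mm and IAPLTR2b took places 79, 128, 335 and 420. For IAPLTR2_Mm the nearest rows were the ERVK elements RLTR18 at 0.085, RMER17C-int at 0.13 and RLTR31C_MM at 0.14, the DNA transposon MER81 at 0.15 and the LINE Lx3_Mus at 0.16, with IAPLTR2a in place 21. Distance over 3 values describes likeness only, and rows close to 0 have many near neighbours.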

How the data were processed

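The values are those of 3 tables of comparison that the authors deposited, 1 per cell type, with 1365 repeat rows and 6 columns. The submitters' processing notes name the build mm10 and, without saying what each did, the tools deepTools, DESeq2, featureCounts, Bowtie2, TopHat2 2.0.13 and Trim Galore. Per the file headers they hold DESeq2 output: a base mean, the signal that the authors obtained by averaging counts divided by size factors; the log2 fold change and its SE, also log2, by the authors; the Wald score the authors derived from them; and the p-value and adjusted p-value as deposited. The score equalled the log2 fold change over its SE in every row that has one, and the deposited adjusted p-values matched Benjamini-Hochberg values recomputed from the p-values of the same rows, within a relative tolerance of 1e-06. The depth of each library and any shrinkage of the fold changes towards 0 are not stated; rows with a base mean under 1 did not exceed an absolute log2 fold change of 0.42.

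Main calls are the authors' adjusted p under 0.05 from DESeq2; no count model was refitted, since the tables hold no counts per library. Differences between cell types used a two-sided normal p with Benjamini-Hochberg adjustment over all rows tested in both tables, for 3 pairs. This calculation was tested on simulated data, with independent normal errors scaled by the deposited SEs. Such data cannot show whether the SEs themselves are right. The 95% intervals use the normal quantile. All 7 members were named, with the 3 other IAP rows of smallest adjusted p per table and the 5 rows outside the group nearest to IAPEz-int and to IAPLTR2_Mm. The members and lists were chosen with earlier results of these data known. Python 3.11.15, pandas 2.3.3, NumPy 2.4.6 and SciPy 1.17.1 were used.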

Additional observations from a re-analysis of the deposited data

Results flagged for a closer look

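The difference in log2 fold change between cell types passed the test for 3 rows, each for ESCs minus macrophages. IAPEz-int differed by -0.65 (adjusted p 0.0014) and IAPLTR1_Mm by -0.79 (adjusted p 2.11e-04), while IAPLTR2a differed by 0.61 (adjusted p 0.0037). Of the 21 tests over 7 rows and 3 pairs of cell types, no other passed. Dose and strain differ between these cell types, and their part in the differences cannot be told apart from that of cell type.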

How the results depend on the processing

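Of the 4 alternatives tried for single rows, only centring alters a log2 fold change, and by no more than the small table medians given above, so the sides could hardly change. Over the single rows, 8 combinations of a call and an alternative lost the call, by a threshold of 0.01 or by Holm adjustment. The calls of IAPLTR2a2_Mm in ESCs and IAPLTR2_Mm in macrophages were lost under both, so each is counted under both. With Holm adjustment over all tested rows, 2 rows were positive and 0 negative in macrophages, 0 were positive in NPCs, and 1 differed between ESCs and macrophages. Asking for an absolute log2 fold change of at least 0.5 left 4 of the 6 positive rows in ESCs, 3 of the 4 in macrophages, and 0 negative rows in macrophages. With SEs multiplied by 1.5, 0 rows differed between ESCs and macrophages. With the sign of the second table turned, 5, 4 and 3 rows differed for ESCs minus macrophages, ESCs minus NPCs and macrophages minus NPCs. Over all tested rows 314 of 1124, 182 of 1126 and 243 of 1222 then differed. A mean weighted by base mean, which IAPEz-int dominates by construction, was 0.78, 1.33 and 1.07 in ESCs, macrophages and NPCs, in place of medians of 0.58, 0.19 and 0.22. The 7 rows took 5.49%, 3.35% and 4.22% of the summed base mean in the same order, 13.8%, 11.8% and 16.3% of that of LTR rows, and 5.70%, 3.57% and 4.47% without low complexity, rRNA and satellite rows. The other 51 recomputed summaries moved by at most 1.5 times, or by less than the rows' median SE. No paired analysis was possible because the tables hold no values per library; leaving out replicates was not run for the same reason.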
